A study of Homo sapiens with 20 samples.

Results

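Translation initiation factor genes were followed through the HepG2 data as the protein-coding genes whose symbol is EIF followed by a digit, which takes in the kinases of eIF2 and the eIF4E-binding proteins. The rule matched 61 symbols, of which 5 were pseudogenes or noncoding transcripts and were left out, so that 56 genes remained of 28278 in all. HepG2 is a human hepatocellular carcinoma line. Splicing was read in 3 comparisons by poly(A) or input RNA sequencing. Cells given siFUBP1, an siRNA against the RNA-binding protein FUBP1, were set against the control siRNA siCtrl2, with 3 libraries each at 48 h. Cells given U3 ASO, an antisense oligonucleotide against the U3 small nucleolar RNA, were set against GFP ASO, with 3 libraries each at 72 h. Cells given siFBL, an siRNA against the 2′-O-methyltransferase fibrillarin, were set against siCtrl at 48 h, with 2 input libraries each that had no poly(A) selection described. FUBP1 RNA immunoprecipitation (RIP) from the same siCtrl and siFBL cells gave 2 RIP libraries each. The study's methods call the libraries biological replicates, and each control differs from the others in reagent or time.

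Initiation begins when eIF2 brings the initiator tRNA to the small ribosomal subunit, which eIF3, eIF1 and eIF1A help to prepare. The eIF4F complex, made of the cap-binding protein eIF4E, the scaffold eIF4G and the helicase eIF4A, then recruits the mRNA, with eIF4B and eIF4H stimulating the helicase. eIF5 and eIF5B finish start codon recognition and subunit joining, eIF2B recharges eIF2 with GTP, and 4 kinases (EIF2AK1 to EIF2AK4) block that exchange by phosphorylating eIF2 alpha under stress. 4E-binding proteins hold eIF4E away from eIF4G.

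The exons on which the splicing results turn are printed 5′ to 3′ from hg38 so that their splice sites can be seen, with the exon in capitals and flanking intron bases in lower case. All 5 are bounded by AG before and GT after. The first is exon 4 of 11 of EIF4A2, at chr3:186784962-186785101 on the plus strand, all 140 bases of it coding. The second is exon 14 of 22 of EIF4G2, at chr11:10801661-10801774 on the minus strand. The third is exon 4 of 7 of EIF6, at chr20:35280654-35280829 on the minus strand. The fourth is exon 5 of 7 of EIF4H, at chr7:74190247-74190306 on the plus strand. The fifth lies at chr1:20892619-20892729 on the minus strand and is not in the canonical EIF4G3 transcript, though other GENCODE transcripts carry it as coding sequence.
EIF4A2 140-base exon: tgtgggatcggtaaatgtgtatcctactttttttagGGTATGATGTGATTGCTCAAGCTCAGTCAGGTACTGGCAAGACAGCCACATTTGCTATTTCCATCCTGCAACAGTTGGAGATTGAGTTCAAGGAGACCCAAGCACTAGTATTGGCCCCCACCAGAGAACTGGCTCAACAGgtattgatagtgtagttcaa
EIF4G2 114-base exon: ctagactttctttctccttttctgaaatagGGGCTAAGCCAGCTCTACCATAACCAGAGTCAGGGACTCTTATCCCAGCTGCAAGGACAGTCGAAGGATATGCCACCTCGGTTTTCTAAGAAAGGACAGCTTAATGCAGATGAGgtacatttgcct
EIF6 176-base exon: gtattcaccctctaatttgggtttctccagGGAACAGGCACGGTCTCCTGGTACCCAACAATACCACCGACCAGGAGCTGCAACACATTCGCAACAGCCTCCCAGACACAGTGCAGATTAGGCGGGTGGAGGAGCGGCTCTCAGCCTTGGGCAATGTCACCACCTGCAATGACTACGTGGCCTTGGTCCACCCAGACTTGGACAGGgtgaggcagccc
EIF4H 60-base exon: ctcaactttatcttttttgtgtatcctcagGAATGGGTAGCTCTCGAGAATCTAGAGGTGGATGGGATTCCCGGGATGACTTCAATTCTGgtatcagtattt
EIF4G3 111-base exon: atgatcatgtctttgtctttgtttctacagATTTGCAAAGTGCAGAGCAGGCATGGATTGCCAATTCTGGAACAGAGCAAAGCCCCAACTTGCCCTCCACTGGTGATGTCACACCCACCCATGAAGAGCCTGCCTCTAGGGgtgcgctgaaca
The EIF4A2 exon is not a multiple of 3 in length, and the junction that skips it occurs in 6 GENCODE transcripts, 0 of them annotated as protein coding and 3 as targets of nonsense-mediated decay. The small nucleolar RNA gene SNORD2 lies in the 265-base intron before it. The EIF4G2, EIF4H and EIF4G3 exons are multiples of 3, and coding transcripts without each of them are annotated.

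The skipped exon tables held 112 events of these genes for siFUBP1, 172 for U3 ASO and 40 for siFBL, 206 distinct events in 45 of the 56 genes. The 11 genes with no event were EIF1AD, EIF2B2, EIF2S3B, EIF3C, EIF4A3, EIF4E1B, EIF4E3, EIF4EBP1, EIF4EBP3, EIF5A and EIF5AL1. An event is 1 exon with its flanking junctions, and its inclusion level is the length-scaled share of junction reads that include the exon, from 0 to 1. Libraries held 2693397 to 4474350 junction reads over all events in the siFUBP1 comparison, 11249641 to 13321799 in the U3 comparison and 910779 to 1142189 in the siFBL inputs. Events with a mean of at least 10 reads a library were tested, which left 105, 169 and 36 events of initiation factors. Levels are given in RPM, junction reads scaled to 1000000 a library. FUBP1 itself fell from 50.5 to 7.52 RPM with siFUBP1 (log2 change −2.79), and it was also lower with U3 ASO (34.1 to 24.7, log2 change −0.46, adjusted p = 0.024, limma). FBL had no junction level in these tables. Of 8 liver markers 7 had a level in each table, and none of 6 markers of other cell types did. A level needs a skipped exon event with a mean of at least 10 reads a library. Its absence therefore does not show that a gene was silent. With U3 ASO 6 of these 7 liver markers fell, from −0.25 for APOB to −1.62 for TF on the log2 scale, and TTR was called at 0.17 (−0.12 after centring each library on its median). With siFUBP1 SERPINA1 (−1.19) and AFP (−0.29) were lower and APOB (0.38) higher, and with siFBL SERPINA1 (1.34), AFP (0.47) and APOB (0.14) were higher (adjusted p under 0.1, limma). Whether these shifts play a part in the results on initiation factors was not tested.

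Most initiation factor exons were constitutive. Mean inclusion exceeded 0.95 at 85 of 105 tested events in the siFUBP1 comparison (81.0%, against 59.0% of all events), at 142 of 169 in the U3 comparison (84.0% against 65.4%) and at 20 of 36 in the siFBL comparison (55.6% against 41.2%). These events were also better covered than most, with a median of 217 reads a library against 60.0 over all events for siFUBP1, 503 against 124.5 for U3 ASO and 71.9 against 40.0 for siFBL. The median absolute change in inclusion was 0.011 for siFUBP1 (0.030 over all events), 0.0083 for U3 ASO (0.021) and 0.054 for siFBL (0.068).

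One initiation factor exon passed the test of differential inclusion, EIF4A2 exon 4 with U3 ASO. Calls used a quasi-binomial F test on inclusion and skipping reads with Benjamini-Hochberg adjustment over all events, at an adjusted p under 0.1. With U3 ASO 1 of 169 events was called (0.226% of all 30109 events were), and 7 had an unadjusted p under 0.05 (4.13% of all). With siFUBP1 0 of 105 events were called (0.197% of all) and 6 had an unadjusted p under 0.05 (4.59% of all). With siFBL 0 of 36 were called (0.0% of all), and 0 reached an unadjusted p under 0.05 (2.25% of all). The limma test on log2 odds called 0 initiation factor events in each comparison, and it called 0 of 30110 events of any gene with U3 ASO. Inclusion was lower on average at 54 of 105 events with siFUBP1 (51.9% of all events), at 111 of 169 with U3 ASO (59.2% of all) and at 18 of 36 with siFBL (52.1% of all). The libraries of the groups did not overlap at 5 of 105 events with siFUBP1 (5.16% of all), at 15 of 168 with U3 ASO (6.18% of all) and at 6 of 36 with siFBL (14.4% of all). Apart from EIF4A2 exon 4, these shares lie near those of all events.

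EIF4A2 encodes one of the eIF4A helicases of the cap-binding complex. Its exon 4 was included at 0.841, 0.807 and 0.844 in the 3 GFP ASO libraries and at 0.655, 0.613 and 0.642 in the 3 U3 ASO libraries. The groups did not overlap, and the lowest control lay well above the highest treated library. Mean inclusion fell from 0.831 ± 0.020 to 0.637 ± 0.021 (SD, n = 3 libraries each), a difference of −0.194 (adjusted p = 9.6e-08, quasi-binomial F test across all events). The reads behind it were 1360, 1600 and 1541 inclusion and 133, 197 and 147 skipping reads in the controls, and 946, 957 and 1024 inclusion and 257, 311 and 295 skipping reads with U3 ASO. The call held without any 1 of the 6 libraries, with adjusted p from 1.0e-06 to 9.3e-05. It was lost with limma on log2 odds (adjusted p = 0.856, and 0.858 with a variance trend).

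The isoforms moved in opposite directions with U3 ASO. Inclusion reads per junction went from 61.4 ± 3.57 to 40.4 ± 1.78 RPM (SD, n = 3), while skipping reads went from 13.0 ± 2.68 to 23.8 ± 2.42 RPM. The 90-base exon event of EIF4A2 showed neither shift. Its total was 107 ± 2.81 RPM with GFP ASO and 109 ± 8.92 with U3 ASO. At the 169-base exon, which follows exon 4, the total was 64.6 ± 4.17 and 61.8 ± 2.03. The upstream junction of that event is the exon 4 skipping junction. Its total therefore counts those skipping reads and is not a separate reading of level. Since mean skipping reads rose and this total did not, the rest of it, from the junction after the 169-base exon, was lower with U3 ASO. The 90-base total did not share that fall, and the difference was not tested.

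**Figure D1:**
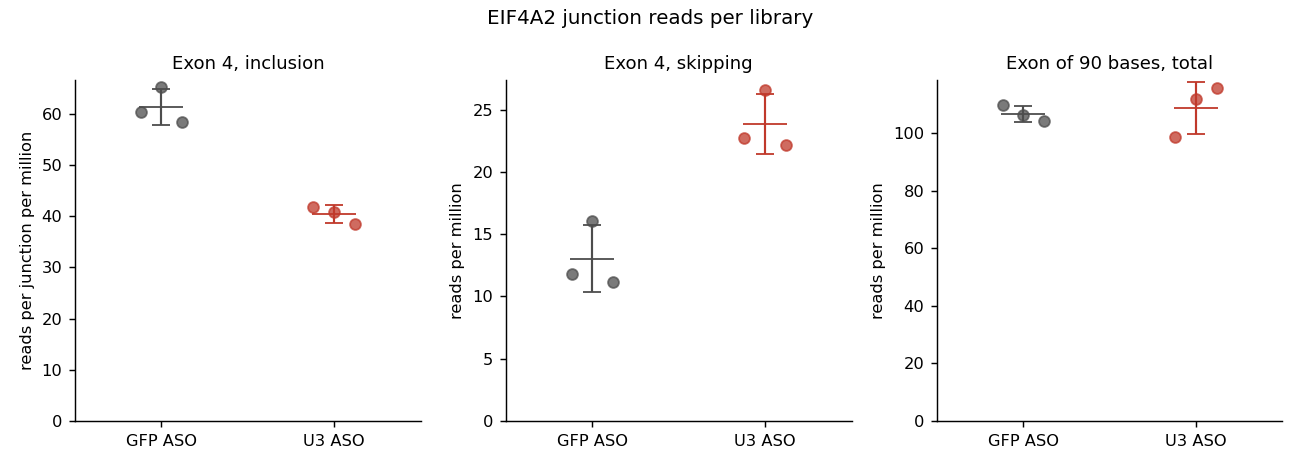
EIF4A2 junction reads in the 3 GFP ASO (grey) and 3 U3 ASO (red) libraries, in RPM on axes that start at 0: inclusion reads per junction and skipping reads at exon 4, and total reads at the 90-base exon. Points are libraries and bars the mean and SD. Inclusion reads are lower and skipping reads higher in every U3 ASO library, while the 90-base exon totals overlap.

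The same exon did not follow that direction in the siRNA comparisons. With siFUBP1 inclusion was 0.899, 0.908 and 0.903 against 0.891, 0.838 and 0.843 with siCtrl2, without overlap between groups (means 0.903 ± 0.0043 and 0.857 ± 0.029; adjusted p = 0.812, quasi-binomial F test). In the siFBL inputs it was 0.974 and 0.866 against 0.729 and 0.906 with siCtrl, and the groups overlapped (adjusted p = 0.874). On the log2 odds scale the U3 ASO change was −1.48 (SE 0.236) and the siFUBP1 change was 0.67 (SE 0.372). The difference between the 2 changes was −2.14 (SE 0.441, adjusted p = 0.0020, z test over 12373 events shared by both tables). This test was added after the EIF4A2 values had been seen, and it called 1 of 76 initiation factor events (0.145% of all). Between U3 ASO and siFBL the difference at this exon was −2.69 (SE 1.49, adjusted p = 0.999), and 0 of 30 initiation factor events were called (0.0219% of all; 0 at an unadjusted p under 0.05). Between siFUBP1 and siFBL 0 of 28 were called (0.0% of all; 0 at an unadjusted p under 0.05). The 2 depletions also differ in reagent, control and time, which cannot be told apart from the target.

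**Figure D2:**
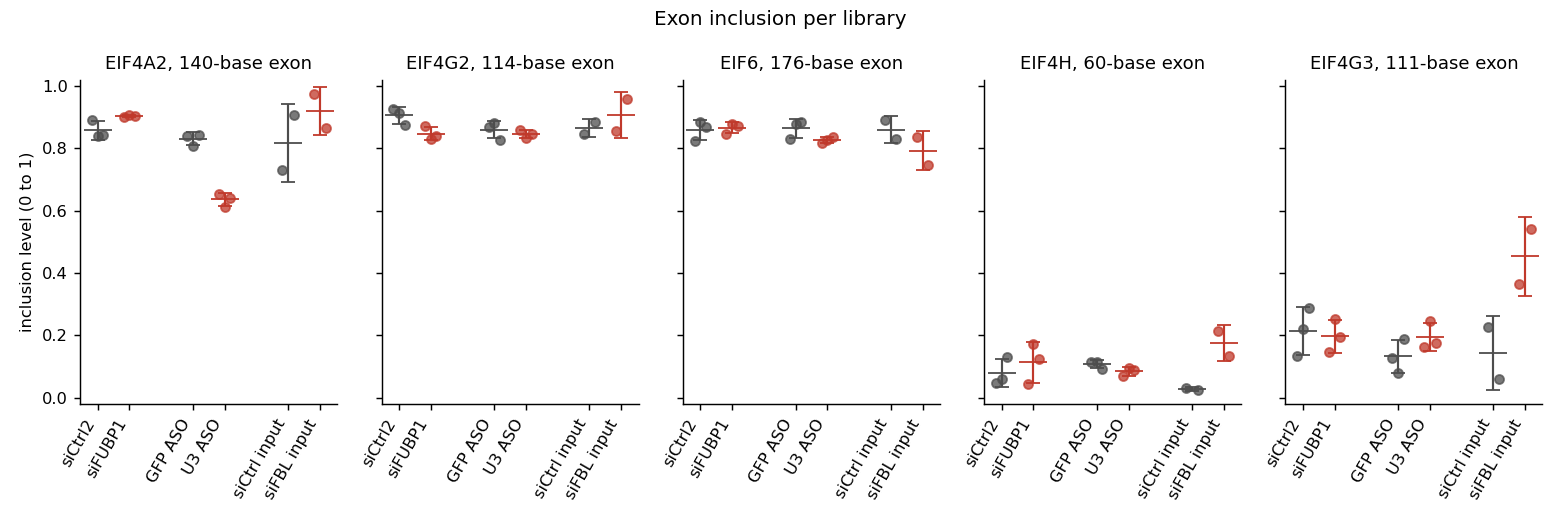
Inclusion level (0 to 1) of 5 initiation factor exons in every library of the 3 comparisons. Points are libraries, with the mean and SD as bars, controls in grey and depleted cells in red. The EIF4A2 exon stands apart with U3 ASO, at 0.613 to 0.655 against 0.807 to 0.844 in the controls.

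The other alternatively spliced exons of the cap-binding group gave smaller or less certain differences. EIF4G2 encodes a scaffold related to eIF4G that lacks the eIF4E-binding part. Its 114-base exon was included at 0.871, 0.830 and 0.840 with siFUBP1 and at 0.927, 0.914 and 0.875 with siCtrl2. The groups did not overlap, with means of 0.847 ± 0.021 and 0.905 ± 0.027, but the difference of −0.058 did not pass (p = 0.0053, adjusted p = 0.607, quasi-binomial F test). With U3 ASO the means were 0.845 ± 0.013 and 0.860 ± 0.028 in the control, and the groups overlapped. In the siFBL inputs inclusion was 0.856 and 0.960 against 0.846 and 0.885 with siCtrl, a higher mean with overlapping groups (difference 0.042, adjusted p = 0.874, quasi-binomial F test). SNORD97 lies in the intron after this exon.

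EIF4H, a cofactor of the helicase, mostly skipped its exon 5. Inclusion was 0.0322 and 0.0232 in the siCtrl inputs and 0.215 and 0.133 in the siFBL inputs, without overlap, from 84.8 reads a library on average. The difference of 0.147 did not pass (p = 0.101, adjusted p = 0.874, quasi-binomial F test). It was 0.113 ± 0.065 with siFUBP1 against 0.0795 ± 0.045, and 0.0849 ± 0.014 with U3 ASO against 0.107 ± 0.013. The cassette exon of the scaffold gene EIF4G3 was included at 0.228 and 0.0608 in the siCtrl inputs and at 0.364 and 0.542 in the siFBL inputs, from 56.2 reads a library (adjusted p = 0.874, quasi-binomial F test across all events). The siFBL groups did not overlap for this exon either, and its siFUBP1 groups did (0.198 ± 0.053 against 0.214 ± 0.077). At these depths, differences of this size did not pass against the variance trend that the test took across events.

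Exon 4 of EIF6, which encodes an antiassociation factor of the large ribosomal subunit, was listed with a second acceptor 7 bases inside it that no GENCODE transcript uses, and both forms share their skipping reads. Inclusion of the 176-base form was 0.829, 0.880 and 0.885 with GFP ASO and 0.818, 0.827 and 0.835 with U3 ASO, and the groups overlapped (p = 0.040, adjusted p = 0.845, quasi-binomial F test). The 169-base form, which is not independent of it because of the shared reads, went the same way (0.782 ± 0.038 to 0.727 ± 0.018; adjusted p = 0.845, quasi-binomial F test across all events). The siFBL inputs gave 0.837 and 0.748 against 0.890 and 0.830, and siFUBP1 gave 0.865 ± 0.018 against 0.859 ± 0.033.

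The remaining events with an unadjusted p under 0.05 mostly lay near full inclusion, and none passed adjustment. EIF3K exon 2 had the smallest p of these with U3 ASO, at 0.992, 0.959 and 0.937 in the controls and 1.00, 0.996 and 0.998 in the treated libraries (adjusted p = 0.522, quasi-binomial F test across all events). EIF2AK1 exon 3 (0.959 to 0.987) and EIF2A exon 12 (1.00 to 0.973) were the others at high inclusion with U3 ASO. A 282-base EIF4E exon absent from the canonical transcript had 0 inclusion reads in the 3 GFP ASO libraries and 11, 9 and 13 in the U3 ASO libraries, an inclusion of 0.0474 ± 0.018 (adjusted p = 0.845, quasi-binomial F test). With siFUBP1 these were EIF4A1 exon 10 (0.994 to 1.00), EIF3I exon 6 (0.968 to 1.00), EIF2AK4 exons 28 and 36 (1.00 to 0.886 and 0.992 to 0.832) and EIF4G1 exon 3, read at only 10.7 reads a library. In EIF2AK4 exon 36 the treated mean rests on 1 library at 0.602, the other two being 0.922 and 0.972. Other named exons with intermediate inclusion gave no smaller p. EIF2S2 exon 7 was at 0.928 ± 0.019 with siCtrl2 and 0.958 ± 0.030 with siFUBP1 (adjusted p = 0.812, quasi-binomial F test). In the siFBL inputs the same exon went the other way, at 0.968 and 1.00 with siCtrl and 0.844 and 0.901 with siFBL, without overlap and from 87.5 reads a library (difference −0.111, adjusted p = 0.874, quasi-binomial F test). EIF2AK4 exon 25 was at 0.972 ± 0.048 with GFP ASO and 0.915 ± 0.026 with U3 ASO (adjusted p = 0.845, quasi-binomial F test). The groups overlapped at EIF2S2 exon 7 with siFUBP1 and at EIF2AK4 exon 25 with U3 ASO.

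Transcript level was read as RPM at the best covered event of each gene, tested with limma on log2 values over all genes. Here fewer transcripts and a change in the chosen exon's splicing cannot be told apart, since inclusion reads span 2 junctions and skipping reads 1. With U3 ASO 26 of 43 genes passed (39.6% of all genes), 21 higher (30.6% of all) and 5 lower (9.04% of all). The median log2 change of all genes was itself 0.27, against 0.22 for these 43. Relative to that median, by centring each library, 16 genes passed, 6 of them higher and 10 lower, where 13.6% and 18.1% of all genes were called. The split therefore depends on the scaling, and directions are given below on both scales.

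Among the eIF2 kinases, EIF2AK2, the double-stranded RNA sensor PKR, had the largest rise of any initiation factor gene with U3 ASO. Its level was 29.2, 28.0 and 29.5 RPM with GFP ASO and 53.5, 61.8 and 66.6 with U3 ASO, without overlap. The log2 change was 1.06 (SE 0.134, adjusted p = 1.2e-06, limma) and 0.77 after centring. EIF2AK4, the sensor of uncharged tRNA GCN2, rose from 37.1 ± 2.05 to 61.5 ± 4.81 (log2 change 0.73, 0.44 after centring). EIF2AK1, the heme-regulated kinase, went from no call (0.060) to lower after centring (−0.23, adjusted p = 0.085).

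In the exchange factor eIF2B, EIF2B4 rose from 47.1 ± 6.64 to 78.5 ± 4.59 RPM (log2 change 0.74, 0.46 after centring). EIF2B3 also passed at 0.81, but with 3.20 RPM in 1 control library against 11.4 and 10.9 in the others. Its change was 0.21 without that library, and it lost its call without any 1 of the U3 ASO libraries and after centring. Of the factors of start codon selection and subunit joining, EIF1 rose from 177 ± 29.8 to 286 ± 31.8 (0.70, 0.41 after centring) and EIF6 from 205 ± 17.8 to 299 ± 1.10 (0.55, 0.26 after centring). EIF1AX fell, at 93.5, 85.0 and 92.3 with GFP ASO and 63.6, 58.7 and 67.6 with U3 ASO. Its log2 change was −0.51 (SE 0.105, adjusted p = 0.00052, limma), and −0.80 after centring.

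Of the 13 eIF3 subunits with a level 7 passed as higher (30.6% of all genes) and EIF3L as lower (9.04% of all) with U3 ASO. Of these 7 only EIF3M was still called higher after centring (0.56 and 0.28). EIF3L (−0.27 and −0.56) was lower on both scales, and EIF3F was called lower only after centring (−0.60). EIF3H (0.21) and EIF3I (0.22) turned to −0.072 and −0.062 after centring and lost their calls. In the cap-binding group EIF4B fell from 207 ± 6.88 to 155 ± 13.3 RPM (−0.41, −0.70 after centring). EIF4G3 (0.49), EIF4G2 (0.34) and EIF4A1 (0.24) passed as higher, none of them after centring. EIF4E2 (−0.39), EIF4H (−0.25) and EIF4G1 (−0.20) were called lower only after centring (adjusted p from 0.037 to 0.064, limma). On that scale 5 of the 9 genes of the group with a level were lower (18.1% of all genes) and 0 higher (13.6% of all). These 5 include EIF4A2. EIF4A2 was called at −0.37 (−0.66 after centring), but both values come from its exon 4 event. Of the other EIF4A2 exons given above, only the 90-base exon has a total free of exon 4 junctions. Its total was 107 ± 2.81 RPM with GFP ASO and 109 ± 8.92 with U3 ASO. The 169-base total counts exon 4 skipping reads, and the rest of it was lower with U3 ASO, so these readings differ. Whether transcript level changed apart from splicing was not tested. The EIF4A2 change was −0.16 when all its events were summed, but that sum includes the exon 4 event. EIF2S3, which carries the tRNA-binding subunit of eIF2, fell from 88.9 ± 7.41 to 74.7 ± 8.94 (−0.25, −0.54 after centring), while EIF2S1 (0.38) and EIF2S2 (0.28) were higher before centring.

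Of the 26 calls with U3 ASO 8 were lost without some 1 library, in each case by limma on uncentred values. The EIF2S3 change ran from −0.33 to −0.16, and its call was lost without GFP ASO library 1 or 3 or U3 ASO library 2 or 3 (adjusted p up to 0.355). EIF2S1 ran from 0.28 to 0.52 and lost its call without GFP ASO library 2 or U3 ASO library 1 or 3 (adjusted p up to 0.183). Among the eIF3 subunits EIF3D (0.16 to 0.38) lost its call without GFP ASO library 2 or U3 ASO library 1 or 2, EIF3H (0.15 to 0.29) without GFP ASO library 1 or 3 or U3 ASO library 1, EIF3I (0.15 to 0.29) without GFP ASO library 3 or U3 ASO library 1 or 3, and EIF3J (0.28 to 0.54) without library 1 of either group. EIF1B (0.29 to 0.47) lost its call without U3 ASO library 3. The last of the 8 is EIF2B3, given above.

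**Figure D3:**
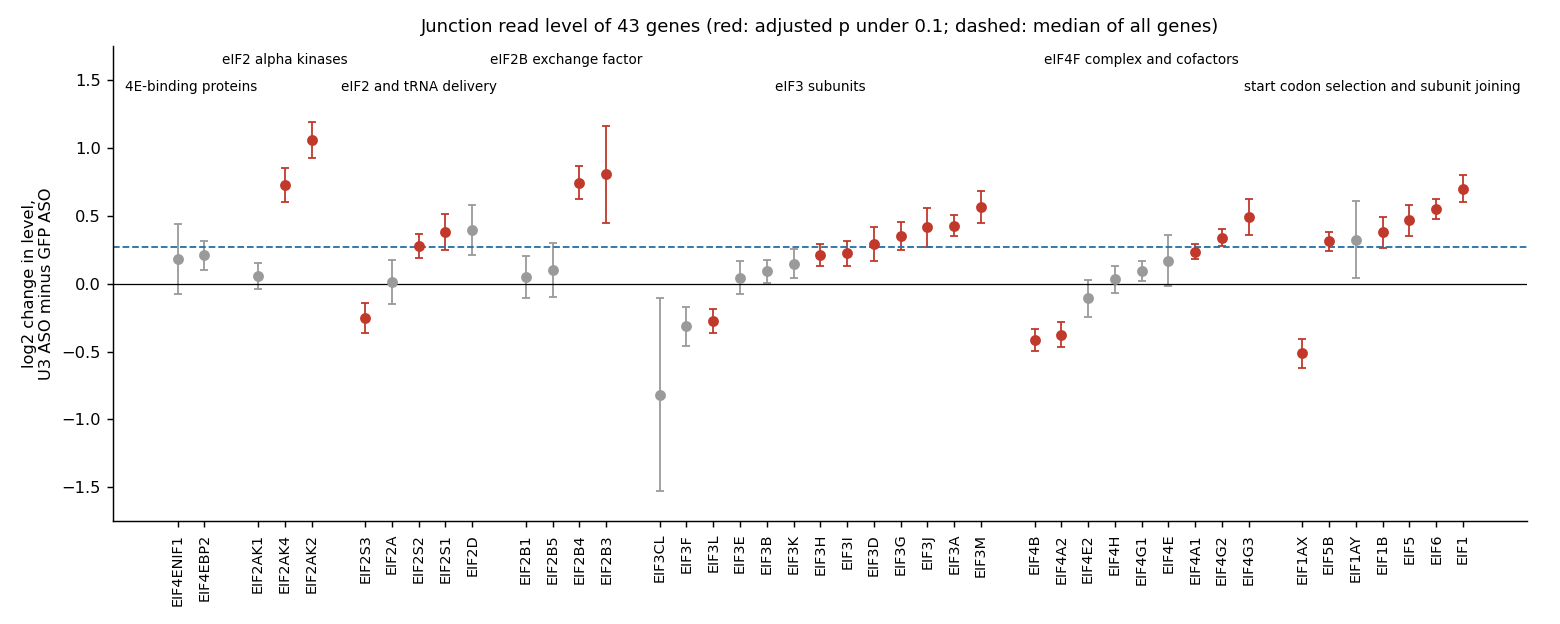
Change in junction read level (log2 RPM, U3 ASO minus GFP ASO, n = 3 libraries each) of 43 initiation factor genes by role. Points are fitted changes with SE bars, red where the adjusted p was under 0.1, and the dashed line is the median of all genes at 0.27. EIF2AK2 lies highest at 1.06, and 5 genes are called below 0.

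Fewer level calls were made in the siRNA comparisons, which were shallower, and the difference between comparisons was not tested. Fitted changes ran from −0.63 to 1.59 with siFUBP1 and from −1.98 to 0.45 with siFBL, against −0.82 to 1.06 with U3 ASO. With siFUBP1 1 of 38 genes passed (9.32% of all genes), EIF2B5, the catalytic subunit of eIF2B. It had 48.0, 58.6 and 38.1 RPM with siCtrl2 and 94.3, 78.6 and 74.3 with siFUBP1, a log2 change of 0.78 (SE 0.197, adjusted p = 0.011, limma). That was 1 higher (4.44% of all) and 0 lower (4.88% of all). The EIF2B5 adjusted p was 0.103 without siCtrl2 library 3. EIF5A2 had the largest fitted change (1.59, SE 0.608), from 4.69 ± 3.42 to 12.4 ± 3.75 RPM, and did not pass (adjusted p = 0.120). After centring EIF3K joined EIF2B5 (0.47, adjusted p = 0.087).

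In the siFBL inputs 1 of 20 genes passed (3.07% of all genes), EIF4B, with 566 and 669 RPM with siCtrl and 332 and 272 with siFBL. Its log2 change was −1.03 (SE 0.203, adjusted p = 0.0045, limma). None was higher (0 of 20 by limma, 0.839% of all) and 1 was lower (2.23% of all). The EIF4B call was lost without siCtrl input library 2, siFBL input library 1 or siFBL input library 2 (adjusted p from 0.120 to 0.274). EIF3L had 185 and 200 RPM with siCtrl and 104 and 104 with siFBL, and did not pass (adjusted p = 0.222). The largest fitted change, EIF4E at −1.98, rests on 27.2 reads a library (adjusted p = 0.359).

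FUBP1 RIP enrichment, the log2 ratio of RIP over input that the authors deposited with its standard error, divided the initiation factor genes widely. Of the 56 genes 50 had a mean count of at least 50 in both conditions. EIF3C, EIF3CL, EIF4E1B, EIF4E3 and EIF4EBP3 lay under it, and EIF4A1 was listed at 0 although its 133-base exon alone had a mean of 5824.5 junction reads a library in the U3 comparison. No control immunoprecipitation was analysed here. In siCtrl cells enrichment was above 0 for 26 of 50 genes (52.3% of all genes), above 1 for 12 (36.5% of all) and under −1 for 18 (34.3% of all). The median was 0.071, against 0.154 over all 11581 genes. The highest were EIF4E at 3.09 (SE 0.148), EIF4A2 at 3.09 (SE 0.052), EIF5A2 at 2.99 (SE 0.219), EIF1AX at 2.80 (SE 0.164) and EIF2AK2 at 2.21 (SE 0.088). Relative to the other transcripts, EIF4E and EIF4A2 were thus about 8.5 times higher in the RIP than in the input. The lowest were EIF6 at −3.24 (SE 0.123), EIF5AL1 at −3.02 (SE 0.446), EIF4EBP1 at −2.96 (SE 0.131), EIF3I at −2.84 (SE 0.135) and EIF3K at −2.73 (SE 0.211).

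**Figure D4:**
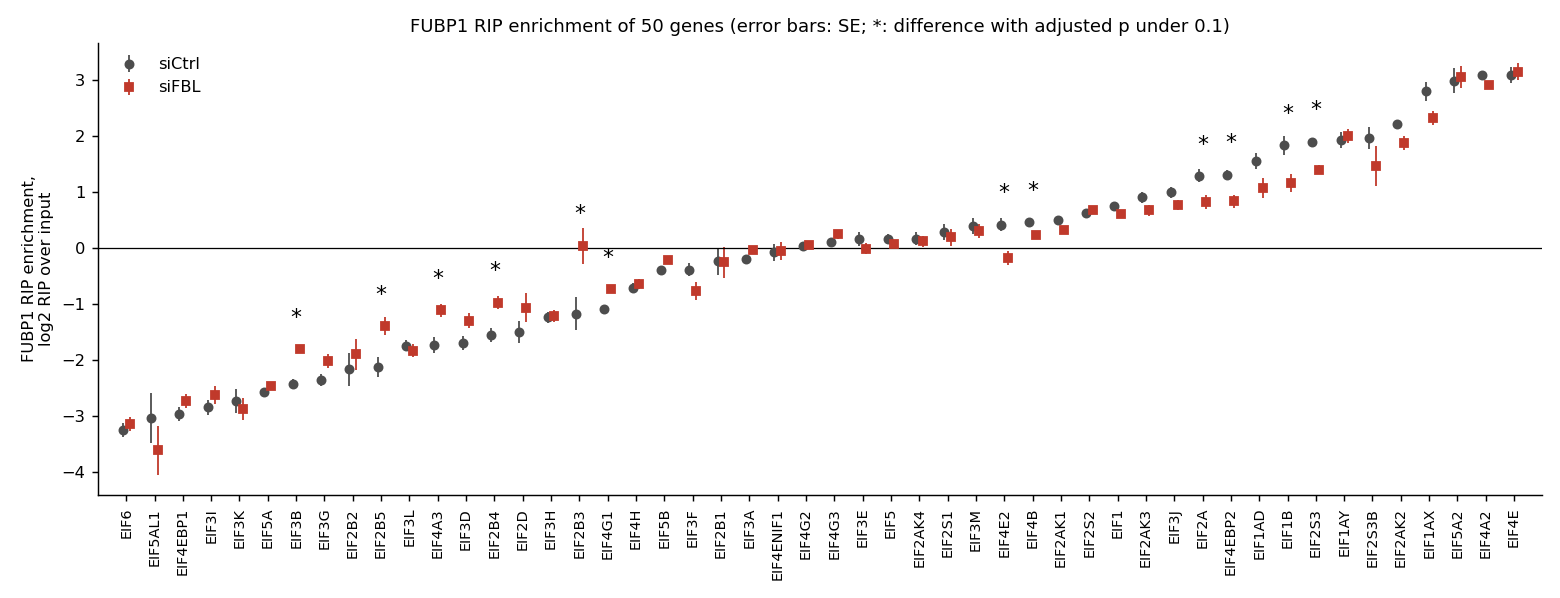
FUBP1 RIP enrichment (log2 RIP over input, with SE) of 50 initiation factor genes in siCtrl (grey circles) and siFBL (red squares) cells, ordered by siCtrl. Stars mark the 12 genes whose difference had an adjusted p under 0.1. The starred genes below 0 lie higher in siFBL and those above 0 lie lower.

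By role, the values are given as a description with no test. All 5 eIF2B subunits were below 0, with a median of −1.55 (the median of all genes was 0.154), and of 12 eIF3 subunits 0 exceeded 1 and 7 lay under −1, with a median of −1.47. The 4 eIF2 kinases were all above 0, with a median of 0.70. The genes for eIF2 and tRNA delivery had a median of 0.96 and those for start codon selection and joining 1.15, with values from −3.24 for EIF6 to 2.80 for EIF1AX. Within the cap-binding group, in which EIF4A3 was counted, the median was 0.10. Its values ran from −1.74 for EIF4A3 (the next lowest was −1.09 for EIF4G1) to 3.09. The groups together span most of the range of the 50 genes.

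Some closely related genes lay far apart and others close together, in pairs chosen after their values were known. The helicase genes EIF4A2 and EIF4A3, the second a core protein of the exon junction complex, had 3.09 (SE 0.052) and −1.74 (SE 0.143). EIF5A2 and EIF5A, which encode forms of the hypusine-containing factor, had 2.99 (SE 0.219) and −2.57 (SE 0.076). The 4E-binding protein genes EIF4EBP2 and EIF4EBP1 had 1.31 (SE 0.077) and −2.96 (SE 0.131), and the cap-binding genes EIF4E and EIF4E2 had 3.09 (SE 0.148) and 0.42 (SE 0.110). Other pairs lay close, with 2.80 and 1.93 for EIF1AX and EIF1AY, 0.040 and 0.10 for EIF4G2 and EIF4G3, and 1.90 and 1.97 for EIF2S3 and EIF2S3B. For the pairs far apart, which were picked by enrichment and so test nothing, the U share of the canonical GENCODE transcript was 30.8% for EIF4A2 and 26.5% for EIF4A3, 34.5% for EIF5A2 and 22.6% for EIF5A, 30.8% for EIF4EBP2 and 15.5% for EIF4EBP1, and 34.7% for EIF4E and 21.3% for EIF4E2. Reads of near-identical copies, such as EIF5A with EIF5AL1 and EIF2S3 with EIF2S3B, may have been divided between them, so their values are uncertain.

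Across the 50 genes enrichment and transcript U share had a Spearman correlation of 0.76, and across 10658 genes of all kinds it was 0.80. With the GC share it was −0.73 and −0.82. These are descriptions across genes of the same libraries, which are not independent replicates, and the relation is not particular to initiation factors. The 12 genes above 1 had a median U share of 30.8% (28.3 to 34.7%), and the 18 under −1 had 22.5% (15.5 to 29.9%). EIF3H was an exception, at −1.24 with 29.9% U.

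**Figure D5:**
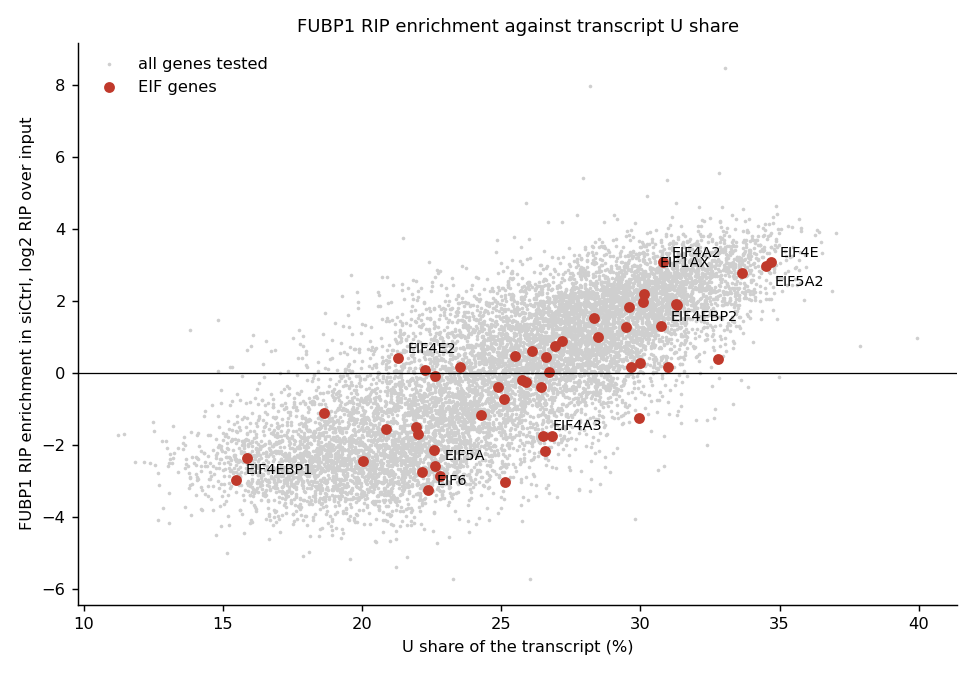
FUBP1 RIP enrichment in siCtrl cells (log2 RIP over input) against the U share of the canonical transcript in percent, with 50 initiation factor genes in red over 10658 genes in grey. The initiation factors lie along the cloud of all genes, from EIF4EBP1 at 15.5% U to EIF4E at 34.7%.

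With siFBL the enrichment of 12 of 50 genes differed from siCtrl (14.7% of all genes; z test on the deposited ratios and standard errors, adjusted p under 0.1). Of these 6 were higher (6.57% of all) and 6 lower (8.18% of all). The 6 higher genes were all below 0 in siCtrl: the eIF3 core subunit gene EIF3B went from −2.43 to −1.80 (adjusted p = 1.2e-06), the scaffold gene EIF4G1 from −1.09 to −0.73 (adjusted p = 8.9e-08), and EIF4A3, EIF2B5, EIF2B4 and EIF2B3 rose by 0.58 to 1.21. The 6 lower genes were all above 0: EIF2S3 went from 1.90 to 1.40 (adjusted p = 0.00026), EIF4E2 from 0.42 to −0.18 (adjusted p = 0.0038), and EIF4EBP2, EIF4B, EIF1B and EIF2A fell by 0.24 to 0.68. EIF4B, whose input level was also lower, went from 0.46 to 0.23. EIF4E (3.09 and 3.15), EIF5A2 (2.99 and 3.05) and EIF6 (−3.24 and −3.13) were not called, nor was EIF4A2 (3.09 and 2.91, adjusted p = 0.108).

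Movement towards 0 was general. Of the 24 initiation factor genes below 0 in siCtrl 19 moved up, as did 75.1% of all such genes, and of the 26 above 0 20 moved down, as did 73.2% of all. The siCtrl value both sorts the genes and enters the difference, so error in it alone would give some movement towards 0. The SD of enrichment over all genes was 2.02 in siCtrl and 1.81 in siFBL. The z values also spread more widely than their standard errors allow, with a robust SD of 1.51 over all genes. With siFBL rescaled to the SD of siCtrl 5 of the 50 genes passed (475 of all 11581). With z divided by its robust SD 3 did (389 of all 11581), and both settings were chosen after seeing the data. EIF3B, EIF4G1 and EIF2S3 passed under both, and EIF4E2 and EIF4B under the first alone. EIF4A3, EIF2B3, EIF2B4, EIF2B5, EIF4EBP2, EIF1B and EIF2A passed under neither, with adjusted p from 0.118 to 0.317 under the first and from 0.286 to 0.592 under the second (z test).

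For comparison, 34 other genes of translation and its control (elongation and release factors, poly(A)-binding proteins, mTOR signalling and the integrated stress response) were read in the same way. With U3 ASO 14 of 23 with a level passed, 11 higher and 3 lower (30.6% and 9.04% of all genes), with a median log2 change of 0.29. After centring 3 were higher and 7 lower (13.6% and 18.1% of all), so this split too depends on the scaling. With siFUBP1 1 of 18 was higher (4.44% of all), and with siFBL 1 of 9 was lower (2.23% of all). None of their exon events was called by the quasi-binomial test. These were 0 of 64 with siFUBP1, 0 of 120 with U3 ASO and 0 of 21 with siFBL (0.197%, 0.226% and 0.0% of all events). An unadjusted p under 0.05 was found at 0, 7 and 0 of them (4.59%, 4.13% and 2.25% of all). Of 31 with RIP values 8 were enriched above 1 (36.5% of all) and 13 lay under −1 (34.3% of all), with a median of −0.65. With siFBL 11 of them differed, 7 higher (6.57% of all) and 4 lower (8.18% of all).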

How the data were processed

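Poly(A) RNA from HepG2 cells, RIP RNA and inputs were sequenced as 150-bp paired reads from SMARTer stranded pico libraries. According to the study's methods and processing notes, the authors trimmed reads with cutadapt, aligned them to hg38 with HISAT2, listed skipped exons with rMATS and compared RIP with input by DESeq2 (versions not given in the sources used here; the notes name featureCounts for counting and the methods HTSeq). The deposited splicing tables hold lists of raw inclusion and skipping junction counts per library, with no replicate number. The deposited RIP table holds the authors' mean normalised count, log2 ratio and SE per condition, with 2 RIP and 2 input libraries behind each. The mean normalised count, scaled and averaged by the authors, served here only as an abundance score for filtering. The authors' p-values, adjusted p-values and inclusion differences, and 6 columns of inclusion levels per library, were not used. The siFUBP1 table names its control siCtrl, which the deposited readme pairs with siCtrl2.

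Here, junction counts were summed per event and tested by a quasi-binomial F test with dispersions moderated by limma 3.58.1 squeezeVar in R 4.3.3. The prior degrees of freedom were infinite, so each event took its variance from the trend (median 6.05, 7.04 and 9.83 times binomial for siFUBP1, U3 ASO and siFBL). Levels used limma with a variance trend on log2 RPM (junction reads scaled to 1000000 a library) with a prior count of 1. RIP differences used a z test on the deposited log2 ratios, with a two-sided normal p. A z test also compared the log2 odds changes between depletions, on reads summed per group. Its standard errors used the median dispersion of each comparison for every event. Benjamini-Hochberg adjustment ran over all events or genes with a mean of at least 10 reads, or 50 counts for RIP, and calls used 0.1. The quasi-binomial, level and z tests were run on simulated data, and limma on log2 odds was not. The z test simulations drew their noise from the standard errors that the tests use. They therefore cannot show whether those standard errors are large enough. Named events were those called, those with an unadjusted p under 0.05 (at most 8 a comparison) and the best covered ones with inclusion of 0.05 to 0.95. Named genes were those called, the 5 with the largest level changes, the 5 highest and 5 lowest enrichments and the 5 smallest p of the RIP difference. Other genes named were chosen after their values were seen. Members and lists were chosen with earlier results of these data known. Exons were annotated with GENCODE 44. Pairs of replicate libraries differed by more than sampling noise, so none was merged, and intervals of reads were not used because PCR copies are not independent molecules. Alternatives covered the test, the read minimum, the scaling, the prior count and leaving out each library.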

Additional observations from a re-analysis of the deposited data

Results flagged for a closer look

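The inclusion of EIF4A2 exon 4 differed in its response between 2 depletions. The log2 odds of inclusion changed by −1.48 with U3 ASO and by 0.67 with siFUBP1, a difference of −2.14 (SE 0.441, adjusted p = 0.0020, z test over all events shared by both tables). The direction held in all 3 U3 ASO libraries, each under every GFP ASO library, and in all 3 siFUBP1 libraries, each above every siCtrl2 library. The siFUBP1 change alone did not pass its test. The U3 ASO call was lost with limma on log2 odds (adjusted p = 0.856). The z test between depletions was added after the EIF4A2 values had been seen. The depletions also differ in reagent, control and time, which cannot be told apart from the target.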

How the results depend on the processing

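Of the single values under an alternative, 698 kept their direction and their side of the threshold, 59 lost their call, 2 gained one and 21 turned sign, and of the counts 106 stayed within 1.5 times and 21 did not. The EIF4A2 exon 4 call with U3 ASO became 0 calls with limma on log2 odds, with or without a variance trend. Level calls went from 1 to 2 with siFUBP1 by median centring (2 higher) or by summing all events of a gene (2 calls, 1 of them lower). With U3 ASO median centring gave 16 calls, 6 higher and 10 lower, and turned EIF2S2 to −0.010, EIF3H to −0.072, EIF3I to −0.062 and EIF4A1 to −0.050. With siFBL leaving out 1 library gave 0 to 1 level calls. The RIP difference gave 5 calls (2 higher, 3 lower) with siFBL rescaled, where 475 of all 11581 genes were called. It gave 3 (2 higher, 1 lower) with z divided by its robust SD, where 389 of all were. Both settings were chosen after seeing the data. Rescaling turned EIF6 to −0.28, EIF4EBP1 to −0.11, EIF3I to −0.11 and EIF4A2 to 0.14, none of them called. EIF4A2 was called at a minimum mean count of 200 (−0.18). The cause of these changes was not tested, except that rescaling widens siFBL by construction. Leaving out 1 library turned the sign of inclusion differences that had not passed. The ranges with siFUBP1 were −0.012 to 0.020 for EIF6 at 176 bases, −0.025 to 0.024 at 169 bases, −0.0084 to 0.050 for EIF3K exon 6 and −0.056 to 0.021 for EIF4G3. With U3 ASO they were −0.014 to 0.043 and −0.021 to 0.056 for EIF3I exons 5 and 6. With siFBL they were −0.0096 to 0.094 for EIF4G2, −0.13 to 0.0019 for EIF6 at 169 bases and −0.031 to 0.204 for EIF4G1 exon 4. No paired analysis was possible because the library lists carry no replicate numbers. Arms of 1 library were assumed to vary like the others. The siFBL inputs had the fewest junction reads, 910779 to 1142189 a library.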
